A study of Mus musculus with 4 samples.

Results

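The integrated stress response and the unfolded protein response were examined through 44 mouse genes, listed by symbol and found by their GENCODE M21 names in a table of 54532 gene IDs. All 44 had at least 20 counts over the 4 libraries and all 44 entered the test, which covered 19207 genes. They fall into 14 transcription factors, feedback and output genes of the integrated stress response, 14 genes of amino acid synthesis and transport, 4 genes of the unfolded protein response sensors and Xbp1, and 12 chaperone and folding genes of the endoplasmic reticulum (ER). The RNA came from cranial neural tubes dissected from mouse embryos at embryonic day 10.5. DCKO embryos (2 libraries) carried Lats1 flox/flox, Lats2 flox/flox and E2f1 Tg(Wnt1-cre)2Sor/+, a transgene in which Wnt1 sequences drive Cre. Recombination is expected from it in dorsal neural tube and neural crest cells and not in the whole tissue, and its site was not measured here. Control embryos (2 libraries) lacked the transgene, and the labels do not give their Lats1 and Lats2 alleles. The Cre transgene was present in the DCKO group alone, so its own effect and the loss of Lats1 and Lats2 cannot be told apart. Lats1 and Lats2 encode the kinases of the Hippo pathway that restrain the coactivators YAP and TAZ, and the single comparison is DCKO against Control.

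In the integrated stress response, kinases that sense amino acid shortage, unfolded protein in the ER, haem shortage or viral RNA phosphorylate the translation factor eIF2. General protein synthesis then falls while the mRNA of the transcription factor ATF4 is translated more, and ATF4 drives genes of amino acid synthesis, amino acid import, tRNA charging and feedback control. The unfolded protein response of the ER has a PERK branch that feeds into ATF4, and IRE1 and ATF6 branches that drive chaperone genes through spliced XBP1 and cleaved ATF6. RNA counts per gene show neither eIF2 phosphorylation, nor Xbp1 splicing, nor ATF4 protein.

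Library totals ranged from 41798361 to 55137810 counts. Values are in CPM, counts set relative to library depth, scaled by the trimmed mean of M values (TMM), and 3 counts correspond to 0.0479 to 0.0812 CPM. Lats1 was at 44.2 and 65.6 CPM in the Control libraries and at 30.02 and 29.7 CPM in the DCKO libraries, which gave a log2 fold change of −0.88 with SE 0.23 (edgeR adjusted p = 0.0538). Lats2 was at 26.7 and 13.3 CPM in Control and at 21.2 and 35.3 CPM in DCKO (log2 fold change 0.50, SE 0.41, adjusted p = 0.426). The floxed exons are not named in the sources used here, so whole-gene counts check these labels only in part. Control libraries held 10837 and 7786 counts of Xist and DCKO libraries 8 and 22, so embryo sex and group cannot be told apart. Neural progenitor markers such as Sox2, at 142 and 144 CPM in Control, were present as the tissue label has it, and 10 of 12 such markers fell in DCKO.

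Of the 44 genes, 24 rose in DCKO and 0 fell (edgeR quasi-likelihood test, Benjamini-Hochberg adjusted over all tested genes, threshold 0.05). None of the 44 was lower at an unadjusted p under 0.05, and DESeq2 and limma-voom also called 0 lower. Among all tested genes, 8.93% were called higher and 8.11% lower in edgeR. Of the same 19207 genes, DESeq2 called 2602 higher and 2594 lower, and limma-voom 1811 and 1730. The values lay above both Control libraries in both DCKO libraries for 33 of the 44 genes, below for 3, and overlapped for 8, while 33.6% of all tested genes had both DCKO libraries above both Control libraries. Shares of all tested genes at an unadjusted p under 0.05, or with DCKO values below or overlapping Control, were not counted. The median log2 fold change was 0.94 over the 44 genes and 0.03 over all tested genes. Log2 fold changes were positive for 40 of the 44, of which Psph, Slc7a11, Eif2ak3, Hyou1, Dnajb9, Creld2 and Dnajc3, none of them called, turned negative when libraries were scaled by their totals alone. That scaling put the median of all tested genes at −0.32. It called 1219 of the 19207 genes higher and 3744 lower, against 1716 and 1558 in the main test. Each call rests on 2 embryos a group and 2 residual degrees of freedom. With Control 1 left out, 8 of the 24 calls were kept, and with Control 2 left out, 5 were, while the calls of higher genes over the whole table dropped from 1716 to 245 and to 155. With a DCKO library left out, the spread came from the 2 Control libraries alone, and calls of higher genes over the whole table became more numerous. Calls kept there do not measure the spread between DCKO embryos.

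**Figure D1:**
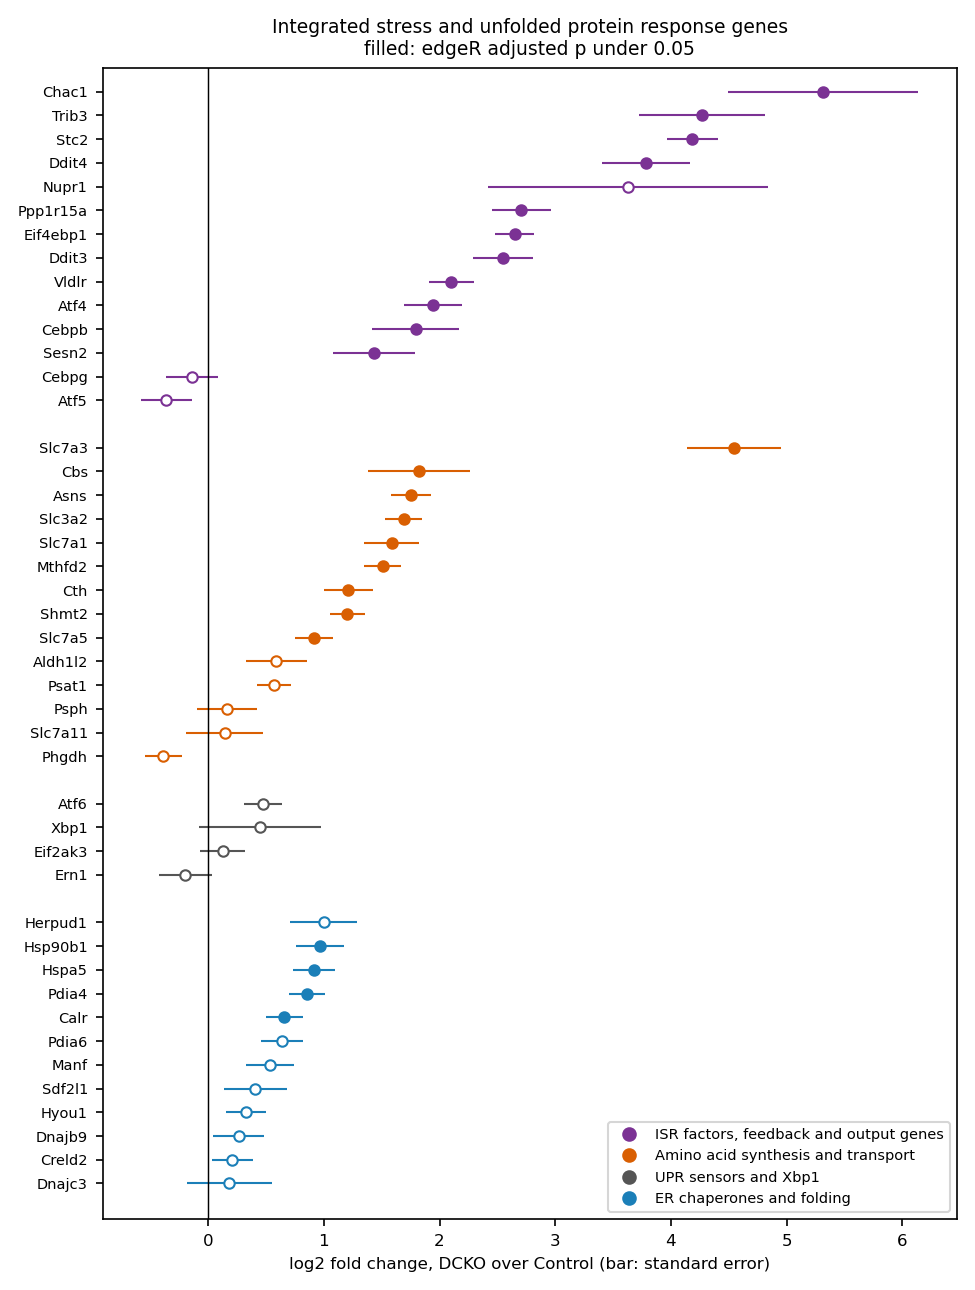
Log2 fold change (DCKO over Control) of the 44 genes on the x axis, by gene group on the y axis, with bars for the standard error and filled points for genes with an edgeR adjusted p under 0.05. Filled points are in all groups except the UPR sensors and Xbp1, and run from 0.66 (Calr) to 5.31 (Chac1).

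The transcription factors of the response did not move together. Atf4, its central factor, lies at chr15:80255184-80257541 on GRCm38 (ENSMUSG00000042406) and stood at 52.3 and 63.4 CPM in Control against 267 and 178 CPM in DCKO. Both DCKO libraries were above both Control libraries, and Atf4 rose (log2 fold change 1.94, SE 0.25, adjusted p = 0.0126). Ddit3, which encodes CHOP, a factor linked to cell death under lasting stress, was at 3.07 and 3.99 CPM in Control and at 18.3 and 22.9 CPM in DCKO, with no overlap. Its level rose as well (log2 fold change 2.55, SE 0.26, adjusted p = 0.00849). Cebpb, a basic leucine zipper factor that can pair with ATF4, was at 2.65 and 1.52 CPM in Control and at 7.72 and 6.77 CPM in DCKO (log2 fold change 1.79, SE 0.38, adjusted p = 0.0334). Its relative Cebpg overlapped between groups, with a log2 fold change of −0.14 (adjusted p = 0.696). Atf5, which is under the same kind of translational control as Atf4, had lower values in both DCKO libraries and did not pass the test (log2 fold change −0.36, adjusted p = 0.286). Nupr1, a small stress-induced chromatin protein, held 0 counts in Control 1 and 7 in Control 2 against 40 and 25 in the DCKO libraries, and its log2 fold change of 3.63 did not pass the test either (SE 1.21, adjusted p = 0.0944).

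The feedback genes rose. Ppp1r15a encodes GADD34, the subunit that directs a phosphatase to eIF2 and so ends the response. It was at 3.42 and 4.33 CPM in Control and at 22.1 and 28.4 CPM in DCKO (log2 fold change 2.71, SE 0.25, adjusted p = 0.00788), with no overlap. Trib3, a pseudokinase that binds ATF4 and CHOP, stood at 0.878 and 0.850 CPM in Control. In DCKO it reached 9.20 and 24.2 CPM, both above Control but far apart from each other (log2 fold change 4.27, SE 0.54, adjusted p = 0.0125). Chac1, an enzyme that degrades glutathione, had the largest log2 fold change of the 44 genes, 5.31 (SE 0.82, adjusted p = 0.0179). Its levels were 0.639 and 0.158 CPM in Control and 8.67 and 23.9 CPM in DCKO, where again DCKO 2 was the higher library.

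Genes that restrain growth signalling moved the same way. Ddit4, which encodes the mTORC1 inhibitor REDD1 and is also known as a hypoxia-induced gene, was at 26.2 and 31.4 CPM in Control and at 265 and 528 CPM in DCKO (log2 fold change 3.78, SE 0.38, adjusted p = 0.00806). Sesn2, a leucine sensor that acts on mTORC1, was at 27.4 and 20.9 CPM in Control and at 43.8 and 87.0 CPM in DCKO. The groups did not overlap, yet Sesn2 passed only narrowly (log2 fold change 1.44, SE 0.36, adjusted p = 0.0486). It lost the call in limma-voom, under library totals, in the TPM tests and without either Control library. Eif4ebp1, the repressor of cap-dependent translation that mTORC1 switches off, was at 28.6 and 25.6 CPM in Control and at 162 and 178 CPM in DCKO. The libraries within each group lay close together, and the log2 fold change was 2.65 (SE 0.17, adjusted p = 0.00583).

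The remaining output genes encode secreted or surface proteins. Stc2, a secreted glycoprotein induced by ER stress, was at 3.91 and 2.92 CPM in Control and at 59.99 and 64.8 CPM in DCKO. Its log2 fold change was 4.19 (SE 0.22) and its adjusted p, 0.00571, the lowest of the 44 genes. Vldlr, a lipoprotein and reelin receptor, was at 12.2 and 11.0 CPM in Control and at 44.5 and 55.045 CPM in DCKO (log2 fold change 2.103, SE 0.19, adjusted p = 0.00761). In all, 11 of the 14 regulators rose and 0 fell, with a median log2 fold change of 2.60. Their summed level was 222 and 224 CPM in Control and 955 and 1255 CPM in DCKO. Of these 11, 6 kept their call without Control 1 (Ppp1r15a, Ddit4, Chac1, Eif4ebp1, Vldlr and Stc2) and 4 without Control 2 (Ppp1r15a, Ddit4, Eif4ebp1 and Stc2).

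**Figure D2:**
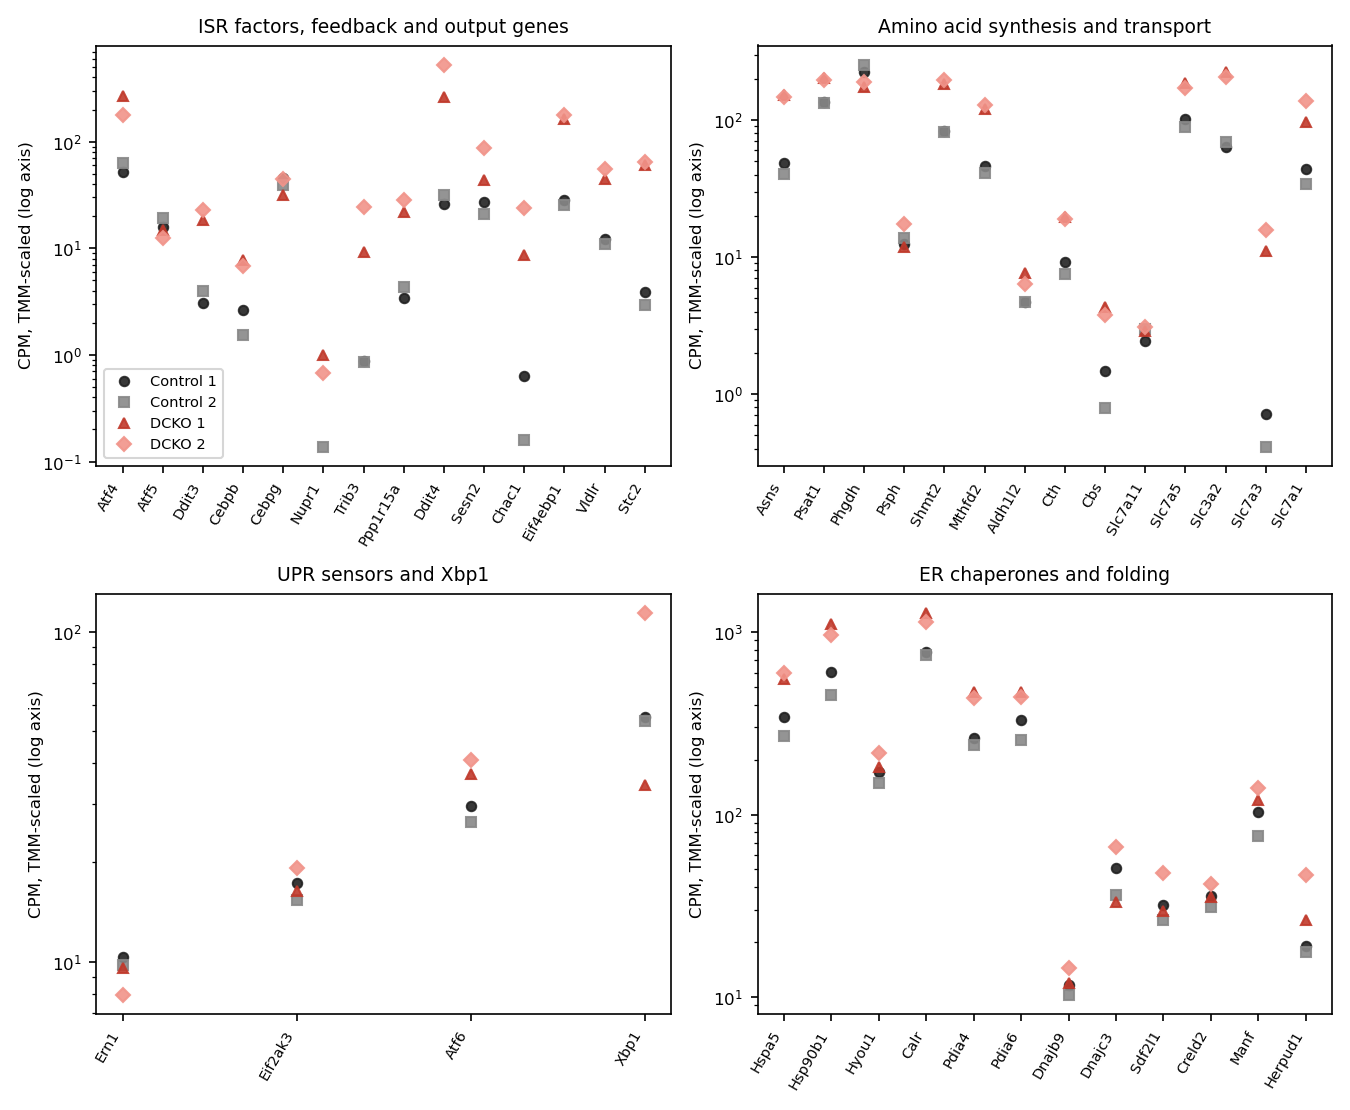
TMM-scaled CPM of the 44 genes (y axis, log scale) in each of the 4 libraries, in 1 panel per gene group, with dark and grey points for Control and red and pink points for DCKO. Control 1 holds 0 counts of Nupr1 and has no point there, and Xbp1 lies at 34.4 CPM in DCKO 1 and at 114 CPM in DCKO 2, on either side of both Control libraries.

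Among the 14 amino acid genes, 9 rose and 0 fell, with a median log2 fold change of 1.21. Asns makes asparagine and is the textbook target of ATF4. The gene spans chr6:7675169-7693254 (GRCm38, ENSMUSG00000029752). It was at 48.7 and 40.3 CPM in Control and at 152 and 147 CPM in DCKO, 2 pairs of close values with no overlap (log2 fold change 1.75, SE 0.17, adjusted p = 0.00806). Shmt2 and Mthfd2, the mitochondrial enzymes that pass the serine carbon into folate, moved together. Shmt2 was at 82.7 and 81.9 CPM in Control and at 182 and 197 CPM in DCKO (log2 fold change 1.20, SE 0.15, adjusted p = 0.0123). Mthfd2 was at 46.3 and 41.0 CPM in Control and at 120 and 128 CPM in DCKO (log2 fold change 1.51, SE 0.16, adjusted p = 0.00927). The folate enzyme after them, Aldh1l2, had values above Control in both DCKO libraries without passing the test (log2 fold change 0.59, adjusted p = 0.176).

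In edgeR, none of the 3 serine synthesis enzymes that supply this route passed the test. Phgdh, the first enzyme of serine synthesis, was lower in both DCKO libraries without passing the test (log2 fold change −0.39, adjusted p = 0.149). It was called lower when libraries were scaled by their totals alone, as were 3744 of all 19207 tested genes. Psat1, the second enzyme, was above Control in both DCKO libraries and missed the threshold at a log2 fold change of 0.57 (adjusted p = 0.0533). It was called higher by DESeq2, by limma-voom, with upper quartile scaling and with the stricter filter on low counts. Psph, the last enzyme, overlapped between the groups, with a log2 fold change of 0.16 (adjusted p = 0.685). The transsulfuration enzymes, which turn homocysteine into cysteine, rose. Cbs was at 1.49 and 0.790 CPM in Control and at 4.32 and 3.76 CPM in DCKO (log2 fold change 1.82, SE 0.44, adjusted p = 0.0463). Cth was at 9.23 and 7.49 CPM in Control and at 19.7 and 18.97 CPM in DCKO (log2 fold change 1.21, SE 0.21, adjusted p = 0.0232). Neither kept its call in the TPM tests or without either Control library, and Cbs also lost it under library totals.

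Of the 5 amino acid carrier genes, 4 rose. Slc7a3, a cationic amino acid carrier, lay at 0.719 and 0.415 CPM in Control and at 11.1 and 15.6 CPM in DCKO (log2 fold change 4.55, SE 0.41, adjusted p = 0.00761). Slc7a1, the widely expressed carrier of the same family, was at 43.9 and 34.4 CPM in Control and at 97.6 and 137 CPM in DCKO (log2 fold change 1.59, SE 0.24, adjusted p = 0.0173). Both carriers import arginine and lysine. Slc3a2, the heavy chain that carries several light chains to the membrane, was at 64.0 and 68.9 CPM in Control and at 223 and 205 CPM in DCKO (log2 fold change 1.69, SE 0.16, adjusted p = 0.00788). Slc7a5, its light chain for leucine and other large amino acids, was at 102 and 89.3 CPM in Control and at 188 and 172 CPM in DCKO (log2 fold change 0.91, SE 0.16, adjusted p = 0.0235). Slc7a11, its light chain for cystine and glutamate exchange, overlapped between groups, with a log2 fold change of 0.14 (adjusted p = 0.794). Slc7a5 lost its call under library totals and in the TPM tests. Without Control 1, 2 of the 9 amino acid calls were kept (Asns and Slc7a3), and without Control 2, 1 was (Slc7a3).

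Promoter sequences are shown for 4 genes of these groups, because the C/EBP-ATF response element (CARE), the site class bound by ATF4, was found there, with the element in capitals. They are RefSeq promoters on GRCm38.p6, running from 250 bases before to 50 bases after the transcription start, and 36 of the 44 genes had one in the table used. The element was searched as TGATGNAA on both strands, and each sequence is written on the strand of its gene. The Asns and Vldlr stretches were cut short because an exon that GENCODE M21 annotates for the gene reaches the sequence around the element. The Chac1 and Slc7a11 stretches touch no annotated exon of theirs.
Asns, chr6:7693214-7693243, minus strand: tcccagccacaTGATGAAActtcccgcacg
Chac1, chr2:119351024-119351081, plus strand: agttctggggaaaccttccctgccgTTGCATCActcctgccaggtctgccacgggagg
Vldlr, chr19:27216809-27216838, plus strand: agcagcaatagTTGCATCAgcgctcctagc
Slc7a11, chr3:50443647-50443704, minus strand: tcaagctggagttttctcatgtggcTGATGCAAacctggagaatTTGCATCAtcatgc
CARE letters were present in 4 of 13 regulators with a promoter (Nupr1, Trib3, Chac1 and Vldlr), in 2 of 10 amino acid genes (Asns and Slc7a11) and in 4.51% of all 27025 genes in the table. Slc7a11 held the letters on both strands and was not called, while Stc2 and Ddit4, which rose, had none in this window. A match describes the letters and shows neither binding nor a cause.

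None of the 4 genes of the sensor group passed the test, with 1 at an unadjusted p under 0.05 in edgeR. DESeq2 and limma-voom called 0 of the 4 as well. Ern1, which encodes the sensor IRE1, was at 10.3 and 9.78 CPM in Control and at 9.57 and 7.93 CPM in DCKO (log2 fold change −0.20, SE 0.23, adjusted p = 0.575). Eif2ak3, which encodes the eIF2 kinase PERK, was at 17.3 and 15.3 CPM in Control and at 16.4 and 19.2 CPM in DCKO, so the groups overlapped (log2 fold change 0.12, SE 0.20, adjusted p = 0.689). Atf6 was at 29.5 and 26.4 CPM in Control and at 37.1 and 40.9 CPM in DCKO, without overlap (log2 fold change 0.48, SE 0.16, adjusted p = 0.101). A p above the threshold does not show that these levels were equal. Xbp1, the factor whose mRNA IRE1 splices, was at 54.95 and 53.6 CPM in Control, at 34.4 CPM in DCKO 1 and at 114 CPM in DCKO 2. The DCKO libraries thus lay on opposite sides of the Control libraries, and their fitted change describes neither (log2 fold change 0.45, SE 0.53, adjusted p = 0.58). Left without DCKO 1, Xbp1 was called higher (log2 fold change 1.06, adjusted p = 0.00938). Left without DCKO 2, it was called lower (log2 fold change −0.66, adjusted p = 0.0434).

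Of the 12 ER chaperone and folding genes, 4 rose and 0 fell, with a median log2 fold change of 0.58. Hspa5 encodes BiP, the main Hsp70 chaperone of the ER and the regulator that holds the sensors inactive. It spans chr2:34771970-34777547 (GRCm38, ENSMUSG00000026864) and was at 341 and 270 CPM in Control and at 552 and 598 CPM in DCKO. The groups did not overlap, and Hspa5 rose (log2 fold change 0.91, SE 0.18, adjusted p = 0.0299). Hsp90b1, the ER form of Hsp90, was at 604 and 451 CPM in Control and at 1102 and 962 CPM in DCKO (log2 fold change 0.97, SE 0.21, adjusted p = 0.0344). Calr, the calcium-binding lectin chaperone calreticulin, was at 776 and 751 CPM in Control and at 1274 and 1133 CPM in DCKO (log2 fold change 0.66, SE 0.16, adjusted p = 0.0476). Pdia4, a disulfide isomerase, was at 261 and 240 CPM in Control and at 469 and 438 CPM in DCKO (log2 fold change 0.86, SE 0.15, adjusted p = 0.0245). These 4 genes shared a narrow range of change, from 0.66 to 0.97. None of the 4 kept its call when either Control library was left out, when libraries were scaled by their totals or when TPM values were tested.

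The other 8 chaperone and folding genes did not pass the test in edgeR. DESeq2 called 6 of the 12 higher, the 4 above with Pdia6 and Herpud1, and the stricter filter added Pdia6 to the edgeR calls. DESeq2 also called more genes over the whole table, 2602 higher against 1716 in edgeR. Herpud1, a membrane protein of ER-associated degradation, had the largest log2 fold change of the group, 1.00 (adjusted p = 0.0699), with 26.5 and 46.4 CPM in DCKO against 18.9 and 17.6 CPM in Control. For Pdia6, another isomerase, the log2 fold change was 0.64 (adjusted p = 0.0678), and for Manf, a secreted ER stress protein, it was 0.53 (adjusted p = 0.131). Sdf2l1 (0.41, adjusted p = 0.329), Hyou1 (0.33, adjusted p = 0.24), Dnajb9 (0.26, adjusted p = 0.435), Creld2 (0.21, adjusted p = 0.445) and Dnajc3 (0.18, adjusted p = 0.754) had smaller log2 fold changes. Dnajb9 encodes the co-chaperone ERdj4, Dnajc3 the co-chaperone P58IPK, and Hyou1 an Hsp110-like exchange factor for BiP. Sdf2l1, Creld2 and Dnajc3 overlapped between the groups. All 12 log2 fold changes were positive, but under scaling by library totals Hyou1, Dnajb9, Creld2 and Dnajc3 turned negative, and the median of the 12 was 0.23.

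Sequences of 6 chaperone promoters are shown because they hold the ER stress response element (ERSE), to which NF-Y with ATF6 or XBP1 binds. It was searched on both strands as CCAAT, a gap of 9 bases of any kind and CCACG, and is in capitals. The Hspa5 stretch was cut short because an annotated exon of the gene reaches the sequence around the element, and the other 5 touch no annotated exon of their gene.
Hspa5, chr2:34772020-34772048, plus strand: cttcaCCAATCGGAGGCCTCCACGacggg
Hsp90b1, chr10:86705613-86705681, minus strand: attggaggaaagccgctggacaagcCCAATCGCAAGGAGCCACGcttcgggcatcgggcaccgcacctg
Calr, chr8:84847050-84847118, minus strand: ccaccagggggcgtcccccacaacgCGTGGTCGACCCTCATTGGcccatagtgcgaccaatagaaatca
Pdia6, chr12:17266466-17266534, plus strand: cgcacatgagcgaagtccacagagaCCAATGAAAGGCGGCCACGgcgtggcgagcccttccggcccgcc
Dnajc3, chr14:118937802-118937870, plus strand: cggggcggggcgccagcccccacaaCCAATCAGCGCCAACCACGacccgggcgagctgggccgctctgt
Creld2, chr15:88819495-88819563, plus strand: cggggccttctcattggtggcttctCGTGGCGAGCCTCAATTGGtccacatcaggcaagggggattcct
ERSE letters were in 6 of 10 chaperone genes with a promoter, in 0 of the 26 other genes of the set with one, and in 0.137% of all 27025 genes in the table. Of the 6, Hspa5, Hsp90b1 and Calr rose, while Pdia6, Dnajc3 and Creld2 did not pass the test. Herpud1 held the related ERSE-II, searched as ATTGG, 1 base and CCACG, which was in 0.0444% of all genes, and also CARE letters. The UPR element TGACGTGG was in 0 of the 36 promoters of the set and in 0.714% of all genes.

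**Figure D3:**
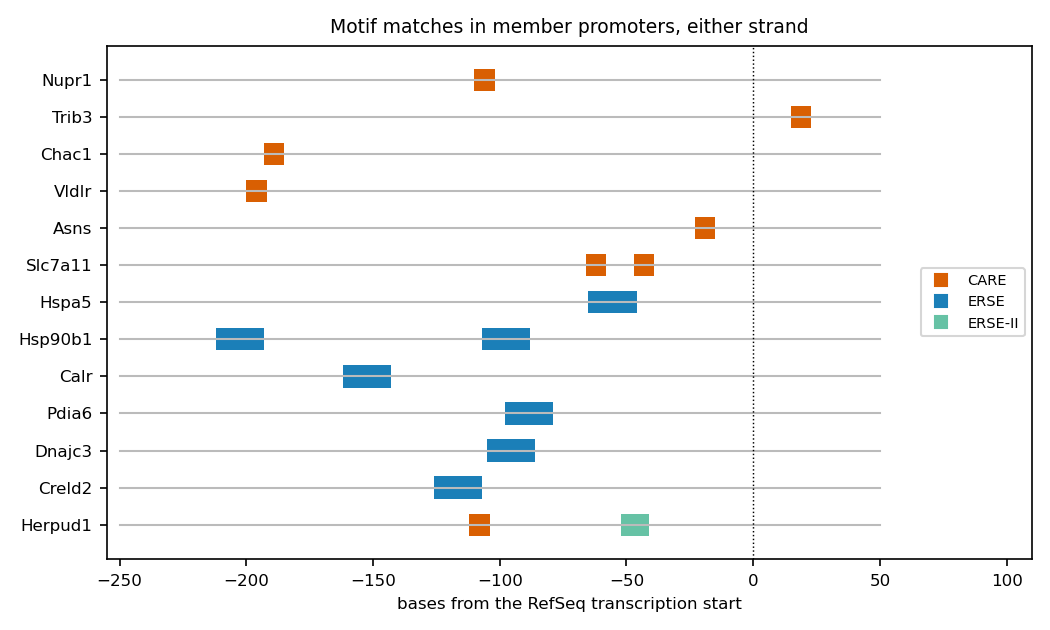
Matches of 3 motifs in the promoters of the 13 genes that hold one, on either strand, by distance in bases from the RefSeq transcription start (x axis), with the grey line as the window searched. ERSE and ERSE-II matches are in chaperone genes, and CARE matches are in regulators, amino acid genes and Herpud1.

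**Figure D4:**
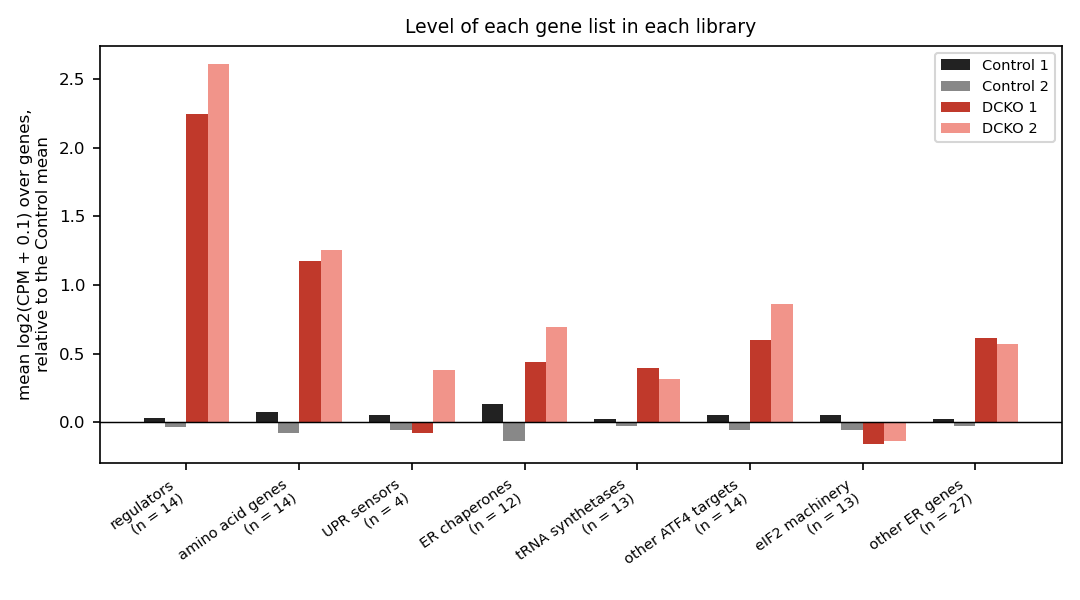
Mean log2(CPM + 0.1) over the genes of each list in each library, relative to the mean of the 2 Control libraries (y axis), for the 4 groups of the set and 4 related lists. The DCKO bars are at 2.24 and 2.61 for the regulators, 1.18 and 1.26 for the amino acid genes, and 0.44 and 0.69 for the ER chaperones.

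Amino acid genes were then set against ER chaperones within each library, where the scaling between libraries cancels. The mean log2(CPM + 0.1) of the amino acid genes minus that of the chaperones was −2.40 and −2.29 in Control and −1.61 and −1.78 in DCKO. The gap was thus narrower in both DCKO libraries, by 0.65 on the log2 scale, with a pooled SD between libraries of 0.10. An exact two-sided permutation test of 2 libraries against 2 gave p = 0.333, which is the smallest it can give. Between the medians of the fitted log2 fold changes, 1.21 and 0.58, the difference was 0.62, and it ranged from 0.57 to 0.73 when single libraries were left out. The amino acid genes summed to 778 and 772 CPM in Control and to 1399 and 1438 CPM in DCKO. The chaperones summed to 2735 and 2316 CPM in Control and to 4307 and 4144 CPM in DCKO. Taken as sums, which follow the most abundant genes, the amino acid level relative to the chaperones overlapped between the groups. The narrowing thus depends on the summary used.

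Levels of different genes can be compared in the authors' TPM, an abundance scaled for gene length and depth. In Control, Calr stood highest at 599 ± 97.1 TPM (SD, n = 2). Hsp90b1 followed at 324 ± 110 TPM, Hspa5 at 253 ± 81.4 TPM and Pdia6 at 236 ± 72.7 TPM, neighbours that lie within each other's spread. Phgdh, the highest amino acid gene, stood at 215 ± 11.3 TPM in Control and 140 ± 25.4 TPM in DCKO. Chac1, Slc7a3, Trib3 and Nupr1, with the largest log2 fold changes besides Stc2 and Ddit4, were each under 1 TPM in Control.

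**Figure D5:**
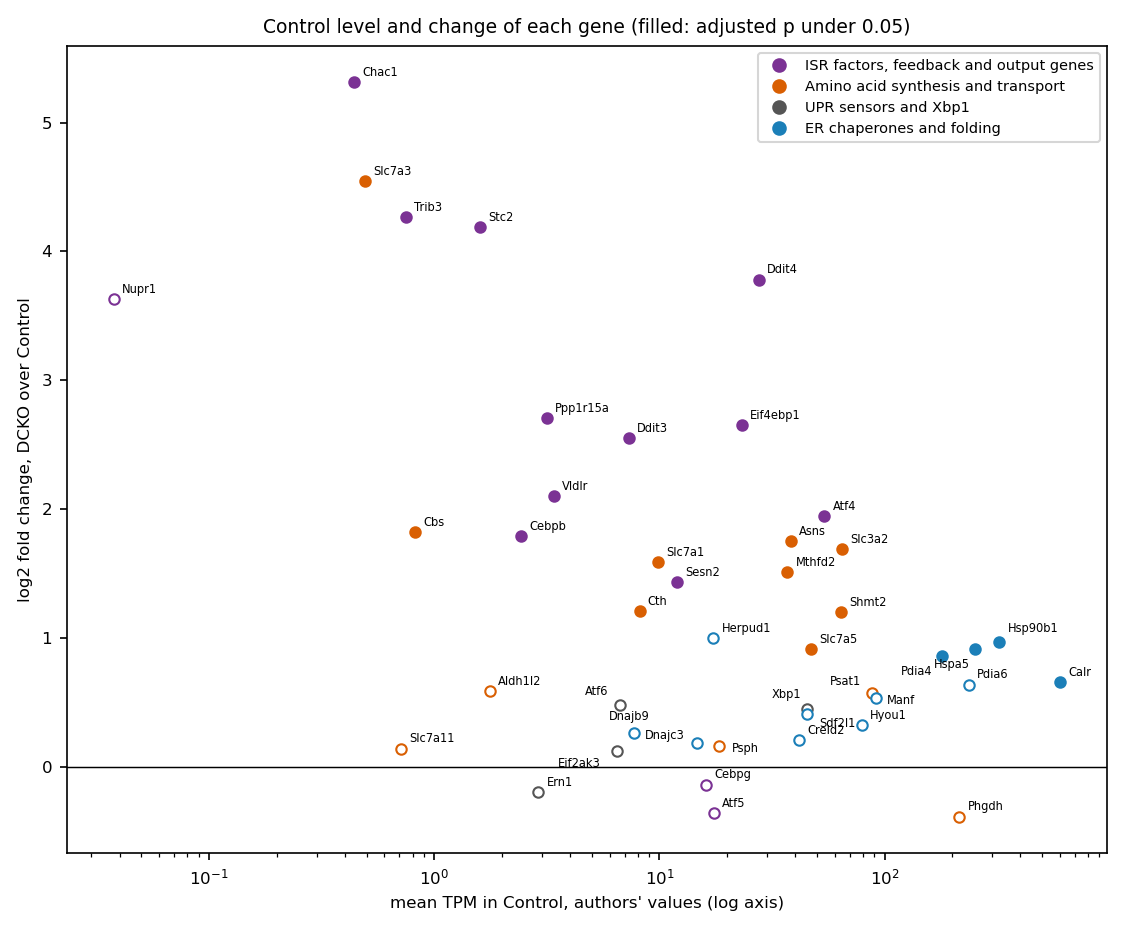
Log2 fold change of each of the 44 genes (y axis) against its mean TPM in the 2 Control libraries (x axis, log scale), coloured by group, with filled points for an edgeR adjusted p under 0.05. Chac1 and Slc7a3 sit at the top left with low Control levels, and the 4 called chaperones sit at the right with log2 fold changes under 1.

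Other genes of these pathways were taken from 4 related lists. Of 13 genes of tRNA charging, which ATF4 is known to drive, and tRNA export (Xpot), 5 rose and 1 fell in edgeR. Their median log2 fold change was 0.58. The calls of higher genes in this list numbered 8 in DESeq2, 7 in limma-voom, 1 without a filter on low counts and 0 under library totals (with 2 lower), in the TPM tests and without either Control library. Lars (0.86, adjusted p = 0.031), Nars (0.69, adjusted p = 0.0365) and Cars (0.62, adjusted p = 0.0457) were among those that rose, and Wars fell (−0.70, adjusted p = 0.0401). Aars, which charges alanine, was not called (−0.37, adjusted p = 0.133). Of 14 tested genes among 16 other ATF4 targets, 4 rose and 2 fell, with a median of 0.66. DESeq2, which called 2602 genes higher over the whole table, called 8 of these targets higher. The filtered TPM tests called 2 of them higher, and 958 to 1007 of 14784 genes over the whole table. Pck2, the mitochondrial enzyme that makes phosphoenolpyruvate, rose (1.73, adjusted p = 0.00919), as did the neutral amino acid carrier Slc1a4 (1.23, adjusted p = 0.0231). The stress factor Atf3 also rose (3.87, adjusted p = 0.0187), from 3.11 and 2.83 CPM in Control to 19.7 and 67.3 CPM in DCKO. Its DCKO libraries lay far apart, with DCKO 2 at 3.42 times DCKO 1. Slc38a2, a carrier of small neutral amino acids that amino acid shortage is known to induce, fell by 1.32 on the log2 scale (adjusted p = 0.015), from 245 and 217 CPM in Control to 83.0 and 102 CPM in DCKO.

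Of 13 genes for eIF2, its exchange factor, its kinases, their cofactors and a phosphatase subunit (Ppp1r15b), 0 rose and 2 fell in edgeR. Their median log2 fold change was −0.25. At an unadjusted p under 0.05, in DESeq2 and in limma-voom, 0 of the 13 were higher as well. Under library totals 4 were called lower, a scaling under which 3744 of all 19207 tested genes were. Those that fell were Gcn1l1, the partner of the amino acid sensing kinase GCN2 (−0.70, adjusted p = 0.0357), and Eif2ak1, the haem-regulated kinase (−0.66, adjusted p = 0.0402). Eif2ak4, which encodes GCN2 itself, was not called (0.32, adjusted p = 0.256). Of 27 other ER genes, 9 rose and 0 fell, with a median of 0.30. Ero1l, the oxidase that recharges the disulfide isomerases and also a known hypoxia gene, rose from 35.2 and 22.9 CPM to 184 and 203 CPM (log2 fold change 2.73, adjusted p = 0.00788). Creb3l2 (1.40, adjusted p = 0.0134) and Creb3l1 (2.28, adjusted p = 0.0141), ER-bound factors that drive secretory pathway genes, rose, as did Sec24d, a coat protein of ER export vesicles (1.48, adjusted p = 0.0151). Under library totals 5 of these 27 ER genes were called higher and 1 lower, and in the filtered TPM 6 were called higher and 0 lower. Those TPM tests called 958 to 1007 of 14784 genes higher over the whole table. Of the 14 called genes named from these 4 lists, Ero1l alone kept its call whichever Control library was left out, and Wars and Eif2ak1 also lost theirs without DCKO 1.

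The 2 DCKO libraries differed in several of these genes. DCKO 2 exceeded DCKO 1 by 3.31 times for Xbp1, 2.76 times for Chac1, 2.63 times for Trib3, 2.01 times for Dnajc3, 1.99 times for Ddit4 and for Sesn2, and 1.75 times for Herpud1. Atf4 went the other way, at 0.669 times its DCKO 1 level in DCKO 2. The order of the DCKO libraries for Atf4 mRNA was therefore the reverse of that for Chac1, Trib3 and Ddit4. For the amino acid genes other than Psph, Slc7a1 and Slc7a3, that ratio lay between 0.836 and 1.09.

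Cell type markers moved with the group in the same libraries, and in bulk tissue fewer cells of a type and less RNA per cell cannot be told apart. Surface ectoderm markers rose for 11 of 12 genes, from a summed 19.1 and 22.9 CPM in Control to 362 and 490 CPM in DCKO, with 1 marker at 0 in Control 2. Cranial mesenchyme markers rose for 10 of 12, from 674 and 717 CPM to 4489 and 2100 CPM. These sums follow 3 collagen genes. In DCKO 1, Col1a1, Col1a2 and Col3a1 held 833, 912 and 2247 CPM of the sum. In DCKO 2 they held 265, 390 and 983 CPM. In Control they held 61.3, 113 and 338 CPM (Control 1) and 96.2, 136 and 323 CPM (Control 2). Endothelial markers rose for 7 of 10, from 189 and 177 CPM to 890 and 515 CPM. Of 9 tested pericyte and mural markers, 6 rose and 1 fell, with summed levels of 234 and 223 CPM against 604 and 805 CPM and 1 of the 10 listed at 0 in Control 2. Notch3, which fell, held 176 and 171 CPM of the Control sums, and Acta2 and Tagln held 334 and 190 CPM of the DCKO 2 sum. Apart from Notch3, Acta2 and Tagln, the listed markers were lower in DCKO 2 than in DCKO 1. Neural progenitor markers fell from 1967 and 2224 CPM to 561 and 435 CPM, and 7 of 12 neuron markers fell, from 1034 and 1316 CPM to 576 and 254 CPM. Of 12 erythroid markers 8 fell, from 2741 and 3929 CPM to 972 and 857 CPM. Of 10 macrophage markers edgeR called 0, with 1 higher at an unadjusted p under 0.05, 1 higher in DESeq2 and 0 in limma-voom. Their summed level was 32.3 and 42.6 CPM in the Control libraries, 104 CPM in DCKO 1 and 34.9 CPM in DCKO 2. The part of these shifts in the changes of the 44 genes was not tested.

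The authors' deposited table, which lists 12574 genes, gives a false discovery rate under 0.05 with higher expression in DCKO for 15.6% of them. By the authors' deposited table this holds for 11 of the 13 regulators it lists, 10 of 13 amino acid genes, 0 of 4 sensor genes and 6 of 12 chaperones. None of the members it lists is given as lower, and Nupr1 and Slc7a11 are absent from it. The share of lower genes over that whole table was not counted. The authors' deposited table also gives Psat1 (log2 fold change 0.63), Pdia6 (0.69) and Herpud1 (1.06) as higher, 3 genes that missed the threshold of the test used here. Gene models of 22 members overlap another model, and strand use in counting is not stated. For Atf5, Ddit3, Cebpb, Psph, Aldh1l2 and Manf the overlapping model held at least 10% of the member's own counts, so the assignment of their reads is uncertain. The largest neighbour held 301% of the member's counts for Atf5 (Nup62), 1202% for Ddit3 (Mars) and 390% for Cebpb (Tmem189). It held 4173% for Psph (Cct6a), 3001.5% for Aldh1l2 (D10Wsu102e) and 144% for Manf (Rbm15b). Of these neighbours only Rbm15b lies on the member's own strand.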

How the data were processed

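Polyadenylated RNA of 4 embryos was sequenced after a stranded library kit, per the labels' protocols. The authors deposited raw read counts per gene, TPM per gene, and a table with log2 fold changes, p-values and false discovery rates. Per the submitters' processing notes, the builds were mm10 and GRCm38 and the tools R 3.3.2, edgeR 3.16.5, limma 3.30.13, StringTie and TopHat2 2.1.1, with no role given. Of 54532 gene IDs, 54409 matched GENCODE M21.

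From the counts, genes were kept by filterByExpr (minimum count 10, minimum total 15), scaled by TMM and tested by edgeR 4.0.16 (R 4.3.3) with group as the only term, two-sided, with Benjamini-Hochberg adjustment. Standard errors come from the fold change and F statistic. The labels call the samples embryos, and p-values cover the spread between 2 embryos a group. CPM of Ddit3 are those of its full model, since a short model inside it held under 20 counts. The scripts were tested on simulated data. Alternatives were DESeq2 1.42.0, limma-voom 3.58.1, tests of log2(TPM + 1) and log2(TPM + 0.1), other scalings and filters, and leaving out each library. Values per library, fold change, SE and adjusted p are given for called members, the sensors and Xbp1, the other members are given more briefly, and up to 4 called genes by p are named in each related list. Aars and Eif2ak4 were named after their values were seen. The members and lists were chosen with earlier results of these data known. Promoter sequences are from RefSeq (GRCm38.p6).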

Additional observations from a re-analysis of the deposited data

How the results depend on the processing

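With single libraries left out, calls of higher genes ranged from 4 to 11 for regulators, 1 to 9 for amino acid genes, 0 to 1 for sensor genes and 0 to 5 for chaperones, and calls of lower sensor genes from 0 to 1; the lone library of a group was then assumed to vary like the other group. The chaperone median ranged from 0.37 to 0.72 and the gap between medians from 0.57 to 0.73. Under library totals 0 chaperones were called higher and 1 amino acid gene lower, and the medians were 0.86 for amino acid genes and 0.23 for chaperones. In TPM, 0 chaperones were called with either pseudocount, with chaperone medians of 0.35 in both, an amino acid median of 0.94 with pseudocount 1 and a gap of 0.78 with 0.1. Without a filter on TPM, 0 regulators, 0 amino acid genes and 0 chaperones were called, 0 genes in the whole table were, and the medians were 0.91 and 0.35 with a gap of 0.56. The median of all genes was −0.19 and −0.21 in the filtered TPM, where 1007 and 958 of 14784 genes were called higher. The cause of these differences was not tested. DESeq2, DESeq2 size factors, upper quartiles and the stricter filter kept all 24 calls, no filter kept 23 (without Calr) and limma-voom kept 23 (without Sesn2). Calls were gained for Psat1, Pdia6 and Herpud1 in DESeq2, Psat1 and Pdia6 with the stricter filter, and Psat1 in limma-voom and with upper quartiles. Sesn2, Cbs and Slc7a5 lost theirs under library totals, and these and Cth in the TPM tests.

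Replicate numbers are shared by the groups, and deviations of same-numbered libraries had a correlation of −0.0371 across genes. That value gives no sign of pairing but cannot exclude that same-numbered samples were handled together. The replicate block left 18 of the 24 calls, 1 of them a chaperone (Hsp90b1), and Sesn2, Cth and Cbs lost theirs. Over the whole table the block called 1002 genes higher and 776 lower, against 1716 and 1558 in the main test. With the block, called higher were 0 tRNA charging genes, 3 other ATF4 targets and 5 other ER genes, and 0 eIF2 genes were called lower.

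The genes whose direction reversed were not called in the main test. Under library totals these were Psph (−0.18), Slc7a11 (−0.21), Eif2ak3 (−0.23), Hyou1 (−0.024), Dnajb9 (−0.087), Dnajc3 (−0.17) and Creld2 (−0.14). In TPM with pseudocount 1, and the same without the filter, these were Psph (−0.051), Ern1 (0.11), Eif2ak3 (−0.014), Dnajc3 (−0.11) and Creld2 (−0.035), and Slc7a11 (−0.12) without the filter. With 0.1 they were Psph (−0.056), Ern1 (0.14), Eif2ak3 (−0.015), Dnajc3 (−0.12) and Creld2 (−0.036). With single libraries left out, Cebpg ranged from −0.42 to 0.092, Psph from −0.15 to 0.42, Slc7a11 from −0.0025 to 0.26, Xbp1 from −0.66 to 1.06 and Dnajc3 from −0.41 to 0.59.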
